A study of Mus musculus with 2 samples.

Results

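The genes described here are the 56 genes of the DNA replication origin and fork machinery, taken by name: every probe set was used that the annotation of the array assigns to 1 gene, that gene being one of the 56. Of these, 55 had at least 1 such probe set, 121 probe sets in all, among 18193 genes so covered on the array, and Chaf1a was not analysed here. Bone marrow derived macrophages of C57BL6 mice had been grown in medium with serum and macrophage colony-stimulating factor (M-CSF), the growth factor that drives marrow precursors to become macrophages and to divide. The series compared macrophages treated with lipopolysaccharide (LPS), the outer-membrane component of Gram-negative bacteria that Toll-like receptor 4 senses, with untreated control macrophages. Both groups shared strain, tissue and M-CSF, and carried no stated genetic change. The labels give 1 LPS array and 1 control array (Affymetrix Mouse Genome 430 2.0) and no dose, duration, animal number or pooling, so there is no replicate check, no estimate of spread and no p-value: every value describes these 2 arrays, whose number limits the precision.

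Before a chromosome is copied, the origin recognition complex (ORC) marks the sites where replication can begin, and CDC6 and CDT1 load the MCM helicase ring there, a step called licensing that geminin blocks once DNA synthesis has begun. The kinase CDC7 with its activator DBF4 then lets CDC45 and the GINS complex join the ring, which opens the double helix. Polymerase alpha with primase starts each strand, polymerases epsilon and delta extend it, the clamp PCNA holds them on the DNA, and FEN1 and LIG1 finish the lagging strand. Transcripts of many of these genes are made mainly in dividing cells, where E2F transcription factors switch them on late in G1.

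Replication genes were mostly lower on the LPS array, with exceptions that lay within 2-fold or were higher. Of the 55 genes, all 55 were measured, meaning that the brightest probe set of the gene (by mean log2 signal) was not under the floor on both arrays; the floor is the median signal of an array, 26.7 units for LPS and 35.1 for control. As deposited, 36 of the 55 (65.5%) were lower by 2-fold or more on the LPS array, against a background of 26.2% of all 11722 measured genes. Only Mcmbp (1.82%) was at least 2-fold higher, against 8.22% of all measured genes. The median log2 ratio of LPS over control was -1.30 for the replication genes and -0.42 for all measured genes. At least 4-fold lower were 16 replication genes, and 7.22% of all measured genes.

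The shift of -0.42 over all genes affects every count, so the counts were also taken after the ratios were centred on their median. Then 25 replication genes (45.5%) were at least 2-fold lower, with a background of 15.3%, and 3 (5.45%) were at least 2-fold higher, with a background of 13.1%. Of the 36 genes lower as deposited, 21 stayed at least 2-fold lower under all 5 other scalings tried. The share of all measured genes lower under all 5 together was not taken. Under single scalings it ran from 12.8% (loess) to 25.0% (hybridization controls). The shift also varied with brightness. Among genes with a mean log2 signal from 7 to 9 the median was -1.30 for 33 replication genes and -0.61 for all 3898 genes. In the range of 9 to 14 it was -1.28 for only 7 replication genes and -0.17 for all 3225, and below 7 it was -1.46 for 15 replication genes and -0.47 for all 4599. In a culture such as this, fewer replicating cells and less transcript per cell cannot be told apart.

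**Figure D1:**
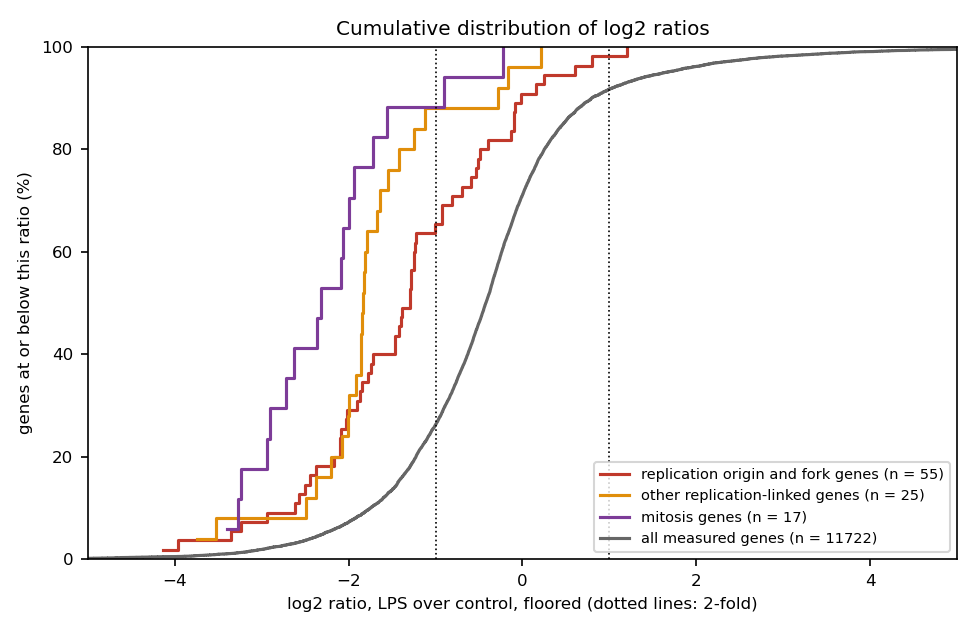
Cumulative share of genes (y axis, percent) at or below each floored log2 ratio of LPS over control (x axis), with 1 line for each gene list and for all measured genes. The line of the 55 replication genes, whose median is -1.30, lies left of that of all 11722 measured genes, whose median is -0.42.

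Promoter sequences are shown because E2F factors are the best known shared regulators of these genes. The promoter windows of RefSeq (build GRCm38.p6, from 250 bases before to 50 after a transcript start) held 46 of the 56 genes. The E2F motif, spelled TTTCGCGC or TTTGGCGC and searched on both strands, occurred in the windows of 13 of these 46 genes (28.3%), against 0.929% of all 27025 genes with a window and 1.85% of the 9520 measured ones. It occurred in 9 of the 27 genes that were at least 2-fold lower and in 4 of the 19 others. The CCAAT box (CCAAT) occurred in 56.5% of the replication genes, against 41.1% of all genes and 42.8% of the measured ones. The GC box (GGGCGG) occurred in 76.1% of them, against 38.2% of all genes but 66.9% of the measured ones. The cell cycle homology region (TTTGAA) occurred in 15.2% of them, against 20.2% of all genes but 14.5% of the measured ones. These are matches of letters, not sites of binding.

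The 28 bases around the match, which stands in capitals, follow for 4 genes with the match after the transcript start and a low ratio. They are Clspn (chr4:126556991-126557018, plus strand), Cdt1 (chr8:122568037-122568064, plus strand), Pole2 (chr12:69228163-69228190, minus strand) and Mcm7 (chr5:138171850-138171877, minus strand). Each is read 5′ to 3′ along the gene's strand.
Clspn: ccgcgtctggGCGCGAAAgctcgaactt
Cdt1: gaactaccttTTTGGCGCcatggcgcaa
Pole2: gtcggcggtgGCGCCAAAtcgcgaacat
Mcm7: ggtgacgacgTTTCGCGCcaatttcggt
The match began at base 22 in Clspn, 33 in Cdt1, 11 in Pole2 and 17 in Mcm7, with the transcript start as base 1. In Clspn and Pole2 it read on the opposite strand.

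Before the transcript start, 3 of the lower genes held the motif: Uhrf1 (28 bases, chr17:56304118-56304145, plus strand), Pola1 (28 bases, chrX:93632276-93632303, minus strand) and Mcm5 (120 bases, chr8:75109336-75109455, plus strand). The capitals mark the matches. The stretches of Uhrf1 and Pola1 lie inside the gene's RefSeq span, before the start of a transcript that begins further in. In Mcm5 a forward and a reverse match overlap, at -153 and -149, where -1 is the base before the start.
Uhrf1: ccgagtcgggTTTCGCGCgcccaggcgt
Pola1: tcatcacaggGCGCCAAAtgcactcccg
Mcm5: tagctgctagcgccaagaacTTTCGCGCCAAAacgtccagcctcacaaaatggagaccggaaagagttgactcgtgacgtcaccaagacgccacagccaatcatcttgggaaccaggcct
The motif also stood before the start of genes that differed by less than 2-fold. Shown of these are Rfc3 (120 bases, chr5:151651209-151651328, minus strand), with the match at -10, and Orc1 (28 bases, chr4:108579417-108579444, plus strand), with the match at -27. The Orc1 stretch too lies inside the gene's RefSeq span.
Rfc3: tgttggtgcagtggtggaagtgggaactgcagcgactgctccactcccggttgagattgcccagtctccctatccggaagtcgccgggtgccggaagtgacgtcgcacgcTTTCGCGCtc
Orc1: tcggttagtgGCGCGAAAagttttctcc
Mcm6 held 3 such matches before its start, at -110, -106 and -47, and Lig1 held 1 after it, at 27. A match was thus found both in genes of large and of small ratio.

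The genes of the origin recognition complex differed from one another in ratio. Orc1, its ATP-hydrolysing subunit, had a signal of 44.1 on the LPS array and 47.2 on the control array. Orc2, another core subunit, had 102 on the LPS array and 91.1 on the control array. Orc3 had 233 on the LPS array and 306 on the control array. By these probe sets the 3 genes lay within 2-fold, with log2 ratios of -0.10, 0.16 and -0.39. Other probe sets were lower, down to -0.49 for Orc1 (with the LPS signal raised to the floor), -0.76 for Orc2 and -1.17 for Orc3. The sign of Orc1 turns positive under 4 of the 5 scalings and that of Orc3 under 3, and that of Orc2 turns negative with the median of its probe sets. Orc4 had 356 on the LPS array and 300.4 on the control array, and its 4 measured probe sets spanned log2 ratios of -0.25 to 0.60, the lowest being that of a probe set under the floor on the control array. Without the floor that probe set had a log2 ratio of 0.32, so its negative sign comes from the floor. Orc5, in contrast, had 86.9 on the LPS array and 292 on the control array, 3.36-fold lower. Orc6, the subunit least tightly bound to the others, had 92.2 on the LPS array and 243 on the control array, 2.64-fold lower, but its log2 ratio after median centring was -0.98. Hence 2 of 6 ORC genes were at least 2-fold lower and 0 higher, with 1 lower after median centring, shares near the backgrounds of 26.2% and 15.3%. The same backgrounds hold for the counts of each role below, which rest on few genes.

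The loading factors had the lowest median log2 ratio of the 12 roles, at -3.36. Gmnn encodes geminin, the inhibitor that binds CDT1, and had the lowest ratio of all 55 genes. Its signal was 64.1 on the LPS array and 1129.7 on the control array, 17.6-fold lower (log2 ratio -4.14), read by 1 probe set. Cdt1, which brings the MCM ring to ORC, had 125 on the LPS array and 1283 on the control array, 10.3-fold lower, and its other measured probe set stood at -2.75 on the log2 scale. Cdc6, the ATPase that loads the ring together with CDT1, had 14.7 on the LPS array, under the floor, and 73.5 on the control array, at least 2.75-fold lower. The loader genes and the gene of their inhibitor were thus all 3 lower, after median centring too.

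**Figure D2:**
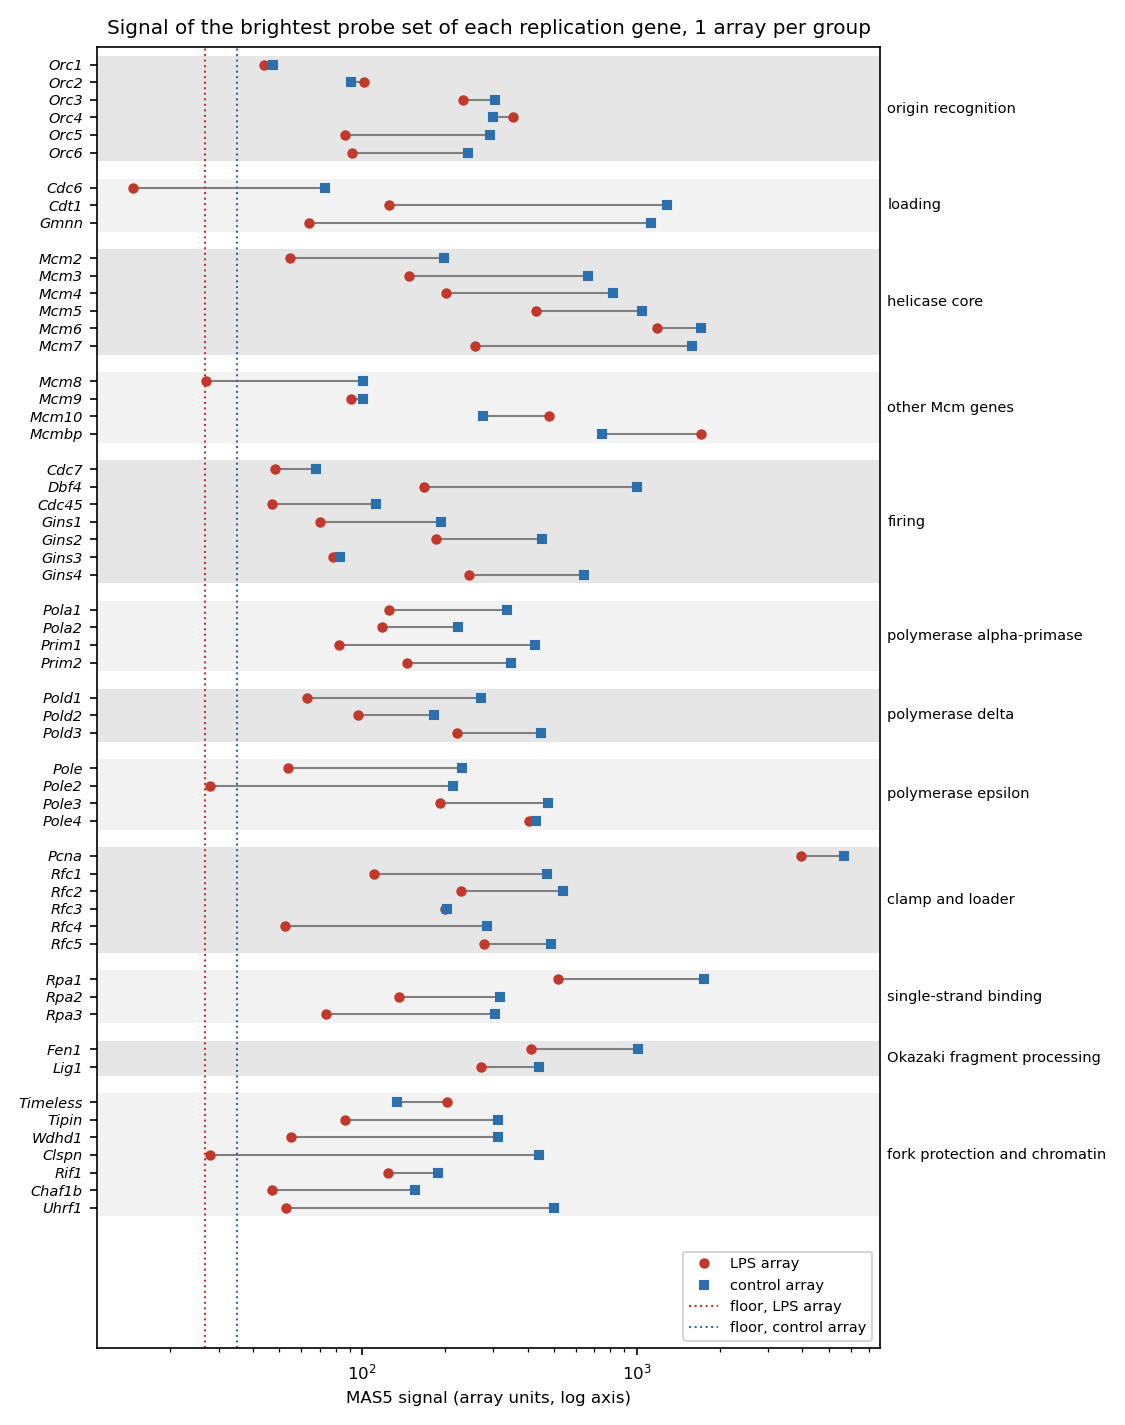
MAS5 signal (x axis, log scale, array units) of the brightest probe set of each of the 55 genes (y axis, grouped by role) on the LPS array (circles) and the control array (squares), joined by a line; dotted lines mark the 2 floors of 26.7 and 35.1. Most circles lie left of their squares; Orc2, Orc4, Mcm10, Mcmbp and Timeless are the 5 with the circle to the right.

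Of the 6 genes of the MCM helicase ring, 5 were at least 2-fold lower and 0 higher, with 4 lower after median centring. Mcm7 had 257 on the LPS array and 1582 on the control array, 6.15-fold lower, and its 4 probe sets spanned log2 ratios of -2.62 to -2.04. Mcm3 had 148 on the LPS array and 663 on the control array, 4.49-fold lower. Its 5 probe sets spanned log2 ratios of -2.20 to -0.75, the latter with the LPS signal raised to the floor. Mcm4 had 201 on the LPS array and 816 on the control array, 4.05-fold lower. By the probe sets used, the other lower ring genes differed by less. Mcm2 had 54.6 on the LPS array and 199 on the control array, 3.65-fold lower. Mcm5 had 429 on the LPS array and 1044 on the control array, 2.43-fold lower, but its log2 ratio after median centring was -0.86. Mcm6 stood apart from its partners in the ring: it had 1181 on the LPS array and 1708 on the control array, a log2 ratio of -0.53, with its other measured probe set at -0.48. Of the probe sets used for these genes, those of Mcm2, Mcm3 and Mcm7 are of the type that can read related transcripts (_s_at) and those of Mcm4 and Mcm5 of the type that holds some shared probes (_x_at). With plain probe sets (_at) alone the log2 ratio was -2.28 for Mcm2, -1.64 for Mcm4 and -1.59 for Mcm3. The order of these genes thus depends on the probe set.

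The Mcm genes outside the ring went both ways. Mcmbp, which encodes an MCM-binding protein that acts on the assembly and release of the ring, had 1716 on the LPS array and 746 on the control array, 2.30-fold higher. Its other probe sets stood at 1.05 and 0.34 on the log2 scale, and it was at least 2-fold higher under all 5 scalings. Mcm10, a factor needed when the helicase starts, had 478 on the LPS array and 275 on the control array, 1.74-fold higher, and was past 2-fold under 4 of the 5 scalings. Its other measured probe set, however, was close to the floor on both arrays, with a log2 ratio of -0.15, so that the direction turns with plain probe sets alone. Mcm8, a helicase of recombination repair, had 27.0 on the LPS array, just over the floor, and 101 on the control array, 3.74-fold lower, a call that is lost with the floor at the 65th percentile (log2 ratio -0.75). Its partner gene Mcm9 had 91.4 on the LPS array and 100.3 on the control array, a log2 ratio of -0.13, whose sign flips to positive under 4 of the 5 scalings.

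Of the 7 genes that fire the licensed origin, 5 were at least 2-fold lower and 0 higher, but only 2 (Dbf4 and Gins1) after median centring. Of all measured genes 26.2% were lower as deposited and 15.3% after median centring. Dbf4, the activating subunit of the CDC7 kinase, had 168 on the LPS array and 998 on the control array, 5.94-fold lower. Cdc7, the kinase itself, could not be settled: its brightest probe set had 48.3 on the LPS array and 67.9 on the control array, a log2 ratio of -0.49, while the other had 13.6 on the LPS array, under the floor, and 129 on the control array, a floored log2 ratio of -2.28. Cdc45, which joins the ring, had 47.1 on the LPS array and 112 on the control array, 2.39-fold lower, with its other probe set at -0.28.

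The genes of the GINS complex, the other partner of the active helicase, were lower in 3 of 4 cases. Gins1 had 70.0 on the LPS array and 193 on the control array, 2.76-fold lower. Gins4 had 245 on the LPS array and 643 on the control array, 2.62-fold lower. Gins2 had 186 on the LPS array and 452 on the control array, 2.43-fold lower, with its other probe set at -0.76. These 3 lay close to one another in ratio. Gins3 had 78.1 on the LPS array and 83.1 on the control array, a log2 ratio of -0.09, whose sign flips to positive under 4 of the 5 scalings, although its other probe set stood at -1.26.

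Polymerase alpha and primase, which lay the RNA-DNA primer, were lower in 3 of 4 genes, and in 2 of 4 after median centring. Prim1, the catalytic subunit of primase, had 82.2 on the LPS array and 426 on the control array, 5.19-fold lower, with its other probe set at -2.73. Prim2, the large subunit of primase, had 146 on the LPS array and 348 on the control array, 2.38-fold lower, with its other measured probe set at -1.67. Pola1, the catalytic subunit of polymerase alpha, had 126 on the LPS array and 338 on the control array, 2.69-fold lower. The accessory subunit gene Pola2 had 118 on the LPS array and 224 on the control array, a log2 ratio of -0.92.

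Both of the polymerases that extend the strands had their catalytic subunit gene lower, by a similar fold with the probe sets used. Pold1, of polymerase delta, had 63.2 on the LPS array and 271 on the control array, 4.29-fold lower, with its other probe set lower still, at -2.56 on the log2 scale. Pole, of polymerase epsilon, had 53.5 on the LPS array and 230.0 on the control array, 4.30-fold lower, read by 1 probe set. Their accessory subunits differed more from one another. Pole2 had 28.0 on the LPS array, near the floor, and 214 on the control array, 7.66-fold lower. Pole3, a histone-fold subunit, had 192 on the LPS array and 473 on the control array, 2.46-fold lower, but its 3 probe sets ranged from -1.30 to -0.15. Pole4, the partner of Pole3, had 404 on the LPS array and 431 on the control array, a log2 ratio of -0.09, whose sign flips to positive under 4 of the 5 scalings. The delta subunits lay at the edge of the 2-fold limit. Pold3 had 222 on the LPS array and 447 on the control array, 2.01-fold lower, with its other probe sets at -1.54 and 0.07, and Pold2 had 96.4 on the LPS array and 183 on the control array, a log2 ratio of -0.92. Pold3 was at least 2-fold lower under 0 of the 5 scalings. Of the polymerase epsilon genes 3 of 4 were at least 2-fold lower, and 2 after median centring, which ends the call of Pole3 (log2 ratio -0.88). Of the polymerase delta genes 2 of 3 were lower, and 1 after median centring.

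The clamp and its loader were divided, with 3 of 6 genes at least 2-fold lower and 0 higher, and 2 lower after median centring. The backgrounds were 26.2% of all measured genes as deposited and 15.3% after median centring. Pcna, the sliding clamp, had 3974 on the LPS array and 5683 on the control array, a log2 ratio of -0.52, which stayed between -0.69 and -0.09 under all 5 scalings. The clamp gene, read by 1 probe set, thus lay within 2-fold under each of these scalings. Among the loader genes, Rfc4 had 52.4 on the LPS array and 286 on the control array, 5.45-fold lower. Rfc1, the large subunit of the loader, had 110.3 on the LPS array and 470.2 on the control array, 4.26-fold lower, and its 3 probe sets ranged from -2.36 to -2.08. Rfc2 had 228 on the LPS array and 538 on the control array, 2.36-fold lower, and by this probe set its log2 ratio after median centring was -0.82. Its other probe sets were lower, at -1.80 and -1.76 as deposited. The other two loader genes lay within 2-fold. Rfc5 had 279 on the LPS array and 488 on the control array, a log2 ratio of -0.81. Rfc3 had 201 on the LPS array and 203 on the control array, a log2 ratio of -0.01, whose sign flips to positive under all 5 scalings, with its other probe set at 0.27. Subunits of 1 loader thus ranged over more than 2 log2 units.

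All 3 genes of replication protein A, which coats single-stranded DNA, were at least 2-fold lower, with 2 of 3 after median centring. Rpa3 had 74.0 on the LPS array and 304 on the control array, 4.10-fold lower. Rpa1, the large DNA-binding subunit, had 516 on the LPS array and 1762 on the control array, 3.42-fold lower, with its other probe set at -1.38. Rpa2 had 136 on the LPS array and 317 on the control array, 2.33-fold lower, with its other probe set at -0.98. Of the enzymes that finish Okazaki fragments, the flap nuclease gene Fen1 had 410.2 on the LPS array and 1009 on the control array, 2.46-fold lower, and the ligase gene Lig1 had 271 on the LPS array and 440 on the control array, a log2 ratio of -0.70. By these probe sets neither of these 2 was 2-fold lower after median centring. The other probe set of Fen1 stood at -1.60 as deposited, and Fen1 was at least 2-fold lower under 3 of the 5 scalings.

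Genes that guard the fork and restore chromatin behind it held some of the lowest ratios and an exception: 5 of 7 were at least 2-fold lower and 0 higher, and after median centring 5 were lower and 1 (Timeless) was higher. Clspn encodes claspin, which relays stalled forks to the checkpoint kinase CHK1, and had 28.0 on the LPS array, near the floor, and 439 on the control array, 15.7-fold lower. Its other probe set had a floored log2 ratio of -1.14. Uhrf1, which brings the DNA methyltransferase DNMT1 to newly copied DNA, had 52.8 on the LPS array and 498 on the control array, 9.43-fold lower, with its other probe set at -2.52. After Gmnn, Clspn and Cdt1 this was the lowest ratio among the 55 genes. Wdhd1, which links polymerase alpha to the helicase, had 55.2 on the LPS array and 313 on the control array, 5.67-fold lower. Chaf1b, a subunit of the chromatin assembly factor that works with PCNA, had 47.0 on the LPS array and 155 on the control array, 3.31-fold lower.

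Timeless and Tipin encode partners in 1 fork protection complex, and they lay on opposite sides. Timeless had 203 on the LPS array and 134 on the control array, 1.52-fold higher, with its other probe set at 0.59, and was at least 2-fold higher under 3 of the 5 scalings. Tipin had 86.5 on the LPS array and 311 on the control array, 3.60-fold lower, read by 1 probe set, and was at least 2-fold lower under all 5. Rif1, which governs the timing of origin firing, had 125 on the LPS array and 188 on the control array, a log2 ratio of -0.60, which is positive under loess. Its 4 probe sets lay together, between -0.66 and -0.45.

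**Figure D3:**
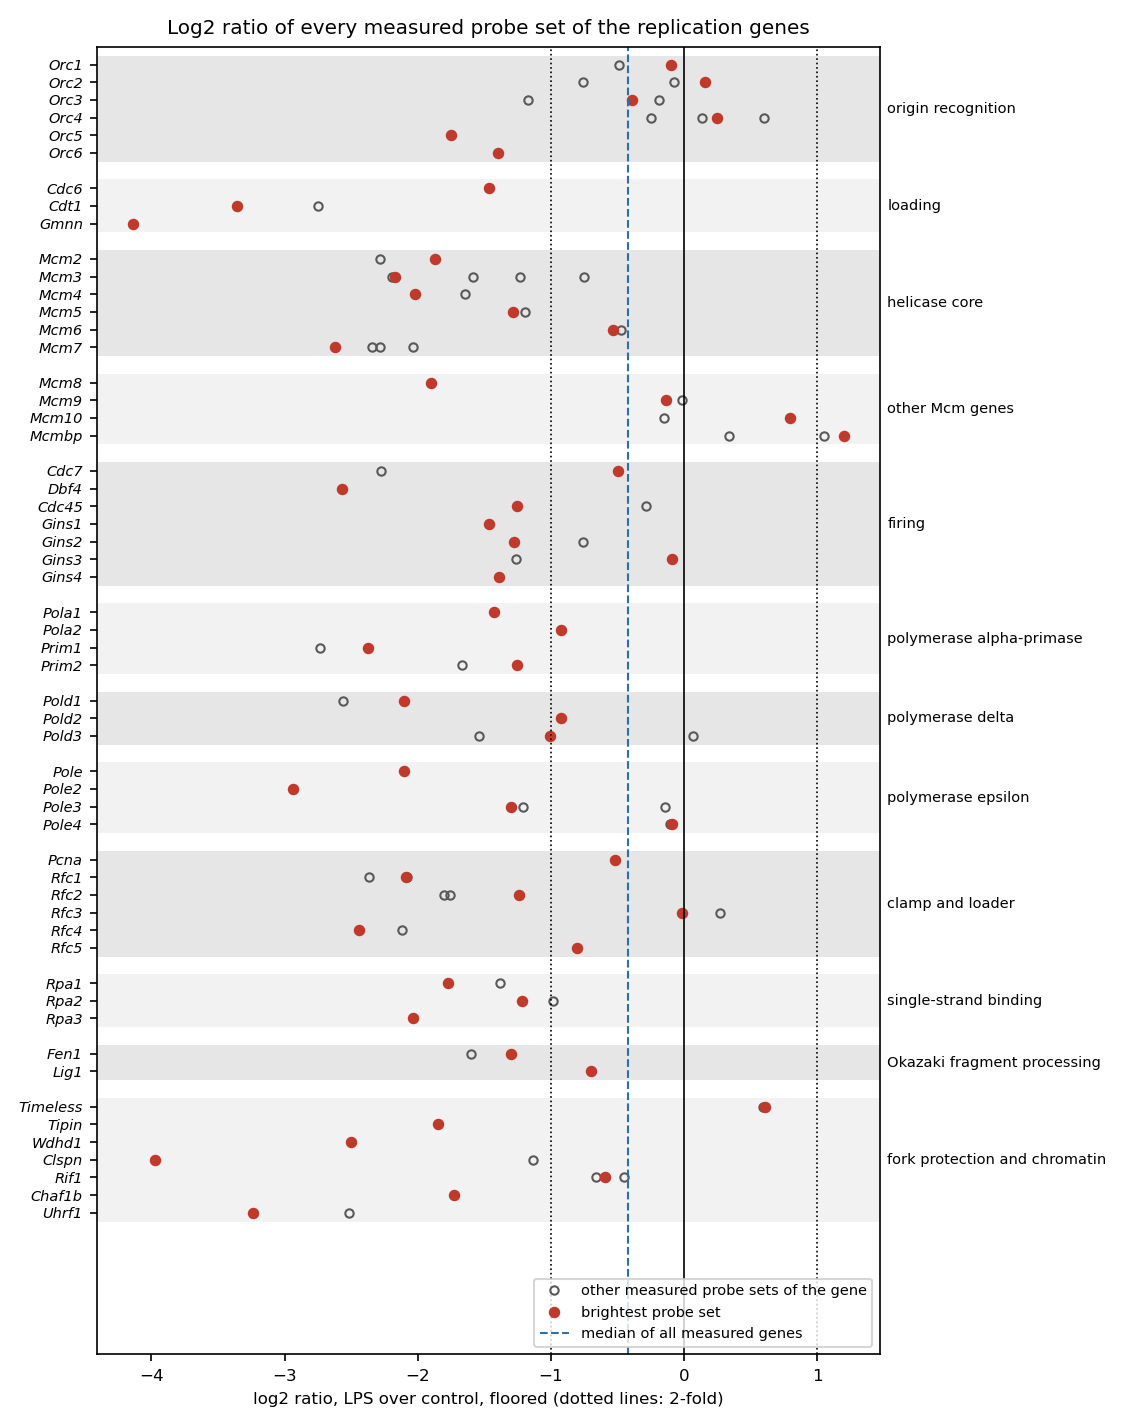
Floored log2 ratio of LPS over control (x axis) for every measured probe set of the 55 genes (y axis, grouped by role); filled points are the brightest probe set of each gene, open points its other measured ones, dotted lines mark 2-fold and the dashed line the median of all genes at -0.42. Cdc7, Pold3 and Clspn are among the genes whose probe sets lie far apart, and those of Rif1 and Timeless lie close together.

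Probe sets that read the same gene give a technical gauge of its ratio. Of the 35 replication genes with at least 2 measured probe sets, 5 had probe sets on both sides of 0. Orc4 was among them only because the floor turned the sign of a probe set with a low control signal. Of 21 such genes that were at least 2-fold lower, 15 had all measured probe sets past 2-fold. The median SD of the log2 ratios within a gene was 0.28 over the 29 replication genes with at least 2 probe sets that reached both floors, the same to 2 decimals as over all 4494 such genes. Of the 55 probe sets used, 38 were of the plain type, 9 read several transcripts of the gene (_a_at), 4 were of the _s_at and 4 of the _x_at type.

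Other genes of DNA synthesis that are not part of the origin and fork list were lower too. Of 25 measured among 28 listed, 22 were at least 2-fold lower and 0 higher (median log2 ratio -1.84), and 20 were lower after median centring. Ticrr, Dscc1, Chtf18, Exo1 and Tonsl were under the LPS floor, so they counted as measured only through the control array, where they were high. With genes that reached both floors alone, 17 of 19 were at least 2-fold lower, against 26.7% of all such genes. The background for this list and for the mitosis genes was 26.2% of all measured genes lower as deposited. After median centring it was 15.3%. Rrm2, of the reductase that makes deoxynucleotides, had 109 on the LPS array and 1461 on the control array. Dna2, a nuclease that trims long flaps, had 31.1 on the LPS array and 359 on the control array, 11.5-fold lower. Tk1, the thymidine kinase of S phase, had 104.5 on the LPS array and 587 on the control array, 5.62-fold lower, and Dnmt1, the methyltransferase that UHRF1 brings in, was 5.20-fold lower. Rnaseh2b, a subunit of the enzyme that removes RNA from DNA, had 517 on the LPS array and 445 on the control array, a log2 ratio of 0.22. Of 17 measured mitosis genes 15 were at least 2-fold lower and 0 higher (median -2.32), with 15 after median centring. Among them Cdc20, Kif20a, Bub1b and Kif11 were 10.5-fold, 9.67-fold, 9.46-fold and 7.70-fold lower, and Tpx2 had a log2 ratio of -0.22, and centring on the median makes it positive. Whether these lists differ from the origin and fork genes was not tested.

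Regulators of entry into S phase were mixed, with 9 of 19 at least 2-fold lower and 4 higher, and 8 lower and 5 higher after median centring. Of all measured genes 26.2% were lower and 8.22% higher as deposited. After median centring these shares were 15.3% and 13.1%. Ccne2, a cyclin that starts S phase, was 8.59-fold lower. The gene of the repressor E2f7 had 12.2 on the LPS array, under the floor, and 229 on the control array, at least 8.57-fold lower. E2f2, an activating E2F, had 36.7 on the LPS array and 205 on the control array, 5.57-fold lower. On the other side stood Ccnd2, a D-type cyclin, with 5571 on the LPS array and 103 on the control array, 54.0-fold higher. The other 3 higher genes, named after their values were seen, were Myc (4.44-fold), the CDK inhibitor gene Cdkn1a (4.27-fold) and the pocket protein gene Rbl1 (2.58-fold).

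The labelled cell type and treatment were both visible. All 8 macrophage markers, among them Csf1r with 7724 on the LPS array and 9710 on the control array and Adgre1 with 7338 on the LPS array and 6967 on the control array, reached the floor of each array, with 0 at least 2-fold lower and 2 higher. The higher ones were the Fc receptor gene Fcgr1 (4.02-fold) and the transcription factor gene Spi1 (2.26-fold). The response genes Tnf, Il6, Il1b, Cxcl10 and Nos2 were all higher by 2-fold or more on the LPS array. Of 9 markers of early myeloid progenitors, which also divide, 1 reached the floor on the LPS array and 2 on the control array. Their summed signal was 208 on the LPS array and 210.3 on the control array. Gata2 reached both floors, with 76.3 on the LPS array and 63.0 on the control array, a log2 ratio of 0.28. Kit had 10.7 on the LPS array, under the floor, and 39.5 on the control array, and Mpo and Elane were under the floor on both. Of 3 measured neutrophil markers Mmp8 was 2.38-fold lower, but its log2 ratio after median centring was -0.83, and Ltf and Ngp lay within 2-fold. Of the markers of B cells, NK cells or mast cells, 0 reached the floor on either array. Few other markers were measured: 1 of 5 for T cells, 2 of 4 for erythroid cells, 1 of 4 for fibroblasts and 2 of 5 for dendritic cells. Of these, 0 were at least 2-fold lower. Among them Cd8a, Epor and Col1a2 reached both floors, and Klf1, Zbtb46 and Ccr7 that of the LPS array alone. With the control signal raised to the floor, Klf1, Zbtb46 and Ccr7 could not have come out 2-fold lower. The part of other cells in the lower replication genes was not tested.

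**Figure D4:**
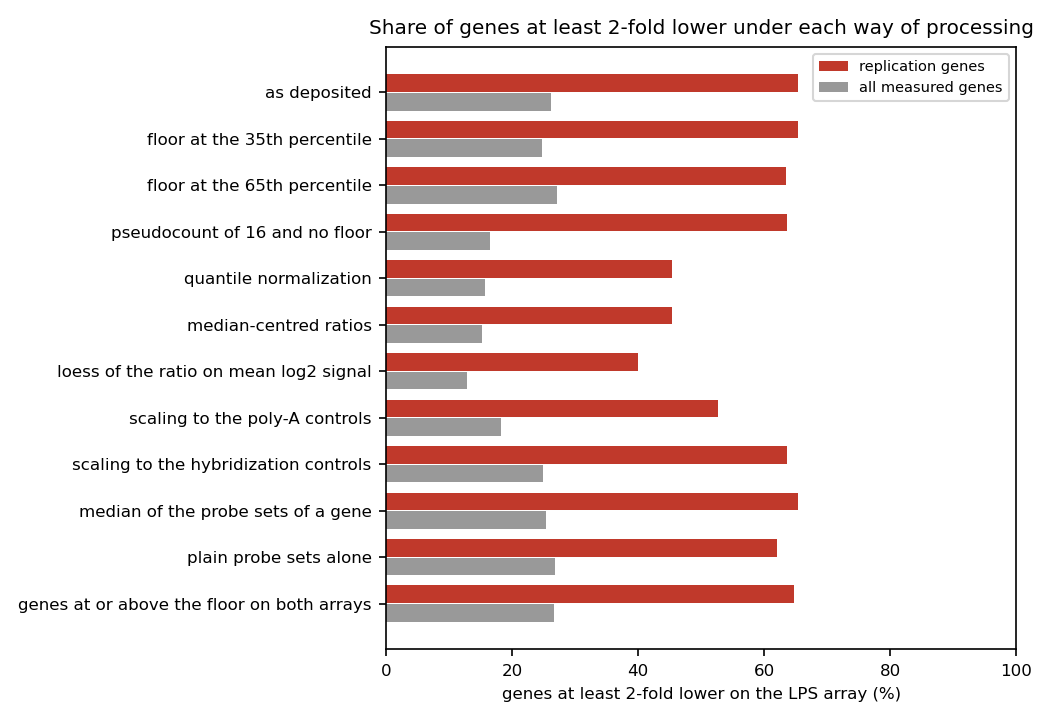
Share of genes lower by 2-fold or more on the LPS array (x axis, percent) for the measured replication genes (upper bar of each pair) and all measured genes (lower bar) under each way of processing (y axis). The replication genes stand between 40.0% and 65.5%, above the share of all genes in each pair.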

How the data were processed

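The authors deposited 1 linear intensity value per probe set and array (45101 probe sets, 64 of them array controls), and per the submitters' processing notes MAS5 made them. No scaling target, MAS5 version or detection call is given here, and 0 columns were left unused. Arrays were grouped by title. Probe sets were named by the platform annotation where it gives 1 gene, and 1 probe set shared by Orc4 and another gene was left out. Each gene was read by its brightest probe set (mean log2 signal). Signals under the array's median (50th percentile) were raised to it before the log2 ratio, LPS over control, was taken, and the fold is then written as at least N-fold. With 1 array per group no test was possible, and genes were counted by size (2-fold).

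The members, lists and alternatives were chosen with earlier results of these data known. By rule all 56 members were accounted for by role, each other list gave its 4 largest ratios and the 1 furthest against its median, and upstream promoter stretches were printed for up to 4 lower genes and up to 2 within 2-fold. The stretches after the start, and the shortening to 28 bases inside a gene's span, were chosen after the matches were seen. Alternatives were a lower and a higher floor (35th or 65th percentile), a pseudocount of 16, 5 scalings (quantile, median centring, loess with span 0.4, 24 poly-A and 18 hybridization control probe sets, whose median log2 ratios were -0.29 and -0.05), other probe set choices and thresholds of 3-fold and 1.5-fold. Steps were tested on simulated data. Python 3.11.15, pandas 2.3.3 and statsmodels 0.14.6 were used.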

Additional observations from a re-analysis of the deposited data

How the results depend on the processing

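Under the alternatives the number of replication genes at least 2-fold lower stayed within 1.5 times of 36, except that it was 22 under loess and 22 with a threshold of 3-fold. Under loess this was 40.0% of the replication genes, against 12.8% of all measured genes. The number at least 2-fold higher, 1 as deposited, was 3 under quantile normalization, 3 after median centring, 3 under loess, 2 with scaling to the poly-A controls, 0 with a threshold of 3-fold and 3 with a threshold of 1.5-fold. The share of all measured genes higher was 8.22% as deposited and 11.7% under quantile normalization. It was 13.1% after median centring, 13.8% under loess and 11.0% with the poly-A controls. For the thresholds of 3-fold and 1.5-fold the shares of all genes were not taken. The median log2 ratio, -1.30 as deposited, was -0.87 under quantile normalization, -0.88 after median centring, -0.69 under loess and -1.01 with scaling to the poly-A controls. The median over all measured genes, -0.42 as deposited, was -0.09 under quantile normalization, 0 after median centring, 0.01 under loess and -0.13 with scaling to the poly-A controls. The counts of replication-linked and mitosis genes at least 2-fold lower stayed within 1.5 times under the alternatives run. Of 596 single-gene ratios over 11 alternatives, 352 moved by less than 0.28, the median SD between probe sets of a gene. By more, 235 moved up and 9 down, and 0 of the 36 lower genes changed sign. Median centring and scaling to the poly-A controls raise every ratio by the same amount, which is over 0.28. Scaling to the hybridization controls raises every ratio by a smaller amount. Much of this tally is thus set by the alternatives and does not gauge single genes. The pseudocount has no floor and so gives no number of measured genes. No paired analysis was possible because each group holds 1 array. Cdc6, Mcm8, Pole2 and Clspn were under or near the floor on the LPS array, so noise at low signal limits their ratios.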
